A study of Mus musculus with 13 samples.

Results

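Foxp3 and the Ikaros family form a group of 6 genes, Foxp3 and Ikzf1 to Ikzf5, taken by gene symbol from all 3 deposited count tables of a mouse regulatory T cell (Treg) study. The tables list 47729 genes for the pre-Treg stage and 22048 for each of the other stages, and 21937 genes are named once in every table. All 6 members are among these. The study compared Treg stages with and without c-Rel, a subunit of the transcription factor NF-kB and the product of Rel. Its 13 RNA sequencing libraries come from C57BL6/J mice of the genotypes cRel+/+Foxp3rfp and cRel-/-Foxp3rfp, so wild type (WT) and knockout (KO) cells alike carried the Foxp3rfp reporter. Thymic pre-Tregs gave 2 WT and 3 KO libraries. Thymic de novo Tregs gave 2 of each genotype, as did Tregs of the spleen, which the labels name tTregs. Cells were enriched for CD4 T cells on magnets and then sorted by flow cytometry. The knockout was carried by the whole mouse as the labels describe it, with no restriction to a cell type named.

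Foxp3 is the X-linked forkhead factor that defines Tregs. It is switched on in thymic precursors after strong antigen receptor and IL-2 signals, and c-Rel is one of the factors known to act at the Foxp3 locus. The Ikaros family are zinc finger factors that bind DNA through fingers near the amino terminus and pair with one another through a conserved pair of fingers at the carboxyl terminus. Ikaros (Ikzf1) is needed for lymphocyte development, Helios (Ikzf2) marks most Tregs made in the thymus, Aiolos (Ikzf3) is known from B cells and helper T cells, Eos (Ikzf4) is a corepressor partner of Foxp3, and Pegasus (Ikzf5) is the most distant relative.

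The 5 family genes are related in sequence. To show how far, the coding bases of a conserved finger of the carboxyl-terminal pair are given for Ikzf1, Ikzf2 and Ikzf5. The finger chosen had the most bases identical to Ikzf1, summed over the best matched finger of each family gene, Ikzf5 included. The bases are written 5′ to 3′ on the coding strand of GRCm38 (GENCODE M21 gene models). Capitals mark bases that differ from Ikzf1.
Ikzf1, chr11:11769411-11769473, plus strand: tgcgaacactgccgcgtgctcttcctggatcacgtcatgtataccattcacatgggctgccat
Ikzf2, chr1:69538870-69538932, minus strand: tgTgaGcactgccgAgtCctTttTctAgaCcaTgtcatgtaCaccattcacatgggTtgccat
Ikzf5, chr7:131391739-131391801, minus strand: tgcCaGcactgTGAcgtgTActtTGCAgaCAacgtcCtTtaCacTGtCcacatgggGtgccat

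Each stretch lies within 1 coding exon and holds 63 bases. Ikzf2 differed from Ikzf1 at 11 of them and Ikzf5 at 20. Over whole transcripts, words of 31 bases were compared between the members. In Ikzf2 3 of 11745 words, and in Ikzf4 3 of 6118, occurred in another member, and none of those of Foxp3, Ikzf1, Ikzf3 or Ikzf5 did. Overlap with neighbouring genes was larger for 2 members. In Ikzf5, 84.5% of exonic bases lie under Pstk or an unnamed model on the other strand. In Foxp3, 21.5% lie under Ccdc22 and Gm36995 on the other strand or Ppp1r3fos on the same strand. The shares were 1.24% for Ikzf2, 0.617% for Ikzf4, and 0 for Ikzf1 and Ikzf3. Whether reads were counted by strand is not given in the sources used here. Ikzf5 counts, and to a smaller extent Foxp3 counts, can therefore include reads of these neighbours. They can also lack reads of their own if reads over several genes were dropped.

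The gene models place Foxp3 at chrX:7579676-7595243, Ikzf1 at chr11:11685003-11772926, Ikzf2 at chr1:69531214-69687245, Ikzf3 at chr11:98464902-98546031, Ikzf4 at chr10:128630843-128645991 and Ikzf5 at chr7:131388652-131410521, all in GRCm38. The targeted gene Rel shares chromosome 11 with Ikzf1, 11.96 Mb away, and with Ikzf3, 74.7 Mb away.

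Levels are given as CPM, here a gene's counts relative to a TMM-scaled library size over the genes common to the tables. Library totals ran from 13656304 to 29866696 counts in pre-Tregs, 25122095 to 28235996 in de novo Tregs and 32291272 to 35114430 in splenic Tregs. The spread between libraries differed by stage, with a common biological coefficient of variation of 0.284, 0.0939 and 0.131 in that order. The 3 stages come in 3 count tables, so stage cannot be told apart from table, nor the splenic stage from tissue. KO pre-Treg replicate 2 has the highest depth of its stage and a description of another naming style. CD4 T cell identity markers summed to between 8620 and 10953 CPM in the 13 libraries. No label says which libraries come from separate animals, so p-values measure only the spread between these libraries, which may be technical. Rel held 103 and 99.3 CPM in WT and 54.3, 52.3 and 65.8 in KO pre-Tregs. In de novo Tregs it held 104 and 102 against 92.2 and 102, and in splenic Tregs 47.3 and 56.7 against 43.5 and 46.2. Genotype was not called for Rel at any stage, and counts per gene hold no information on single exons, so Rel is no full check of the genotype labels.

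**Figure D1:**
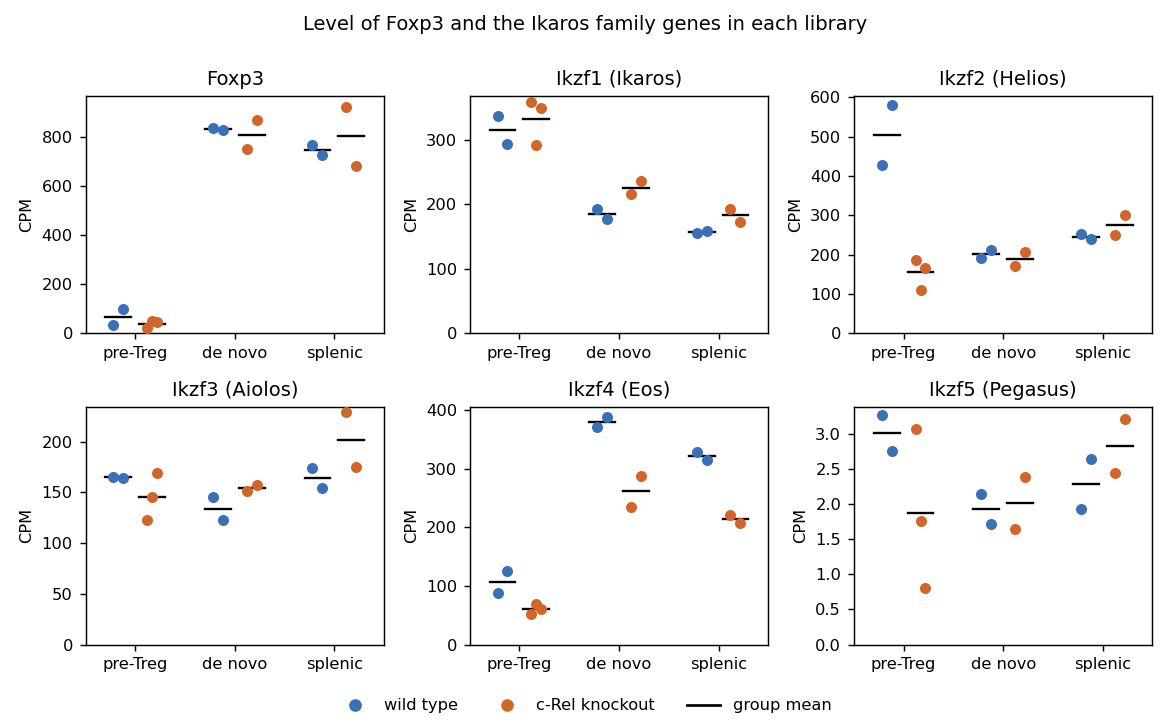
Level in CPM (y axis, linear, a separate scale for each gene) of Foxp3 and the 5 Ikaros family genes in each of the 13 libraries, by stage (x axis) and genotype (blue, wild type; orange, c-Rel knockout), with the group mean as a black line. Ikzf4 points of the knockout lie below those of the wild type at all 3 stages, and Ikzf2 points are apart in pre-Tregs only.

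Foxp3 was far lower before the step into the Treg lineage than after it, and its genotypes overlapped. In pre-Tregs it stood at 32.5 and 101 CPM in the WT libraries and at 19.6, 49.2 and 45.5 CPM in the KO libraries. De novo Tregs held 836 and 827 CPM in WT and 749.5 and 871 CPM in KO. Splenic Tregs held 767 and 726 CPM in WT and 924 and 684 CPM in KO. Every library of the Treg stages lay far above every pre-Treg library, and the genotypes overlapped at each stage. In order of their means the 4 Treg groups were WT de novo, KO de novo, KO splenic and WT splenic, and each neighbour overlapped the next.

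From pre-Tregs to de novo Tregs Foxp3 rose by a log2 fold change of 3.63 in WT (SE 0.48, adjusted p = 0.00032) and 4.40 in KO (SE 0.42, adjusted p = 1.17e-05), by edgeR's quasi-likelihood test with Benjamini-Hochberg adjustment over 13034 genes. A gene is said to be called, or to rise or fall, at an adjusted p under 0.05 by this test, and log2 fold changes of genotype are KO over WT. Foxp3 defines Tregs, so its rise at this step can follow from how the stages were sorted. Its p-values there are no separate evidence of a change. The sorted population is bulk RNA, so more Foxp3-expressing cells and more Foxp3 RNA per cell cannot be told apart. Between de novo and splenic Tregs the log2 fold changes were −0.16 (SE 0.43, edgeR adjusted p = 0.882) in WT and −0.01 (SE 0.43, adjusted p = 0.995) in KO, which did not pass.

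For Foxp3 the log2 fold change of genotype was −0.80 at the pre-Treg stage (SE 0.51, edgeR adjusted p = 0.724). The de novo value was −0.04 (SE 0.08, adjusted p = 0.87) and the splenic value 0.11 (SE 0.14, adjusted p = 0.795). None passed. The pre-Treg value rests on 1 library. The WT libraries differed 3.11-fold between themselves, and without WT replicate 2 the log2 fold change was 0.24. In splenic Tregs, leaving out KO replicate 2 gave 0.31, and leaving out KO replicate 1 gave −0.12. Such a fit holds 1 KO library, takes its spread from the 2 WT libraries alone and assumes that the lone library varies like them. Without splenic KO replicate 2 it called 1548 of 12629 genes and without KO replicate 1 it called 2508 of 12567, so member calls in these fits are read against those counts.

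Ikzf4, which encodes Eos, was the member that separated the genotypes at every stage. In pre-Tregs it held 87.7 and 125 CPM in WT against 52.9, 69.7 and 59.8 CPM in KO. In de novo Tregs the values were 371 and 389 CPM against 235 and 288 CPM. In splenic Tregs they were 328 and 315 CPM against 222 and 208 CPM. No KO library reached the lowest WT library of its stage, and KO means were 0.571, 0.688 and 0.668 times the WT means at the 3 stages in that order.

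KO libraries lay wholly below WT libraries in 14.0% of genes at the pre-Treg stage, 23.8% at the de novo stage and 23.0% at the splenic stage, and at all 3 stages in 1.58% of 13034 genes. Those are the backgrounds against which the lack of overlap in Ikzf4 reads. By group mean the order was WT de novo, WT splenic, KO de novo, KO splenic, WT pre-Treg and KO pre-Treg, and no neighbours in this order overlapped.

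In de novo Tregs Ikzf4 fell by 0.54 on the log2 scale (SE 0.09, edgeR adjusted p = 0.0058). It was the only 1 of the 6 members called there, in a comparison where 6.46% of 11855 genes were called. In splenic Tregs it fell by 0.58 (SE 0.09, edgeR adjusted p = 0.035), again alone among the members, where 1.37% of 12264 genes were called. Genes called as lower in KO made up 3.54% in de novo and 0.758% in splenic Tregs. Over all stages, with stage as a covariate, it fell by 0.65 (SE 0.10, adjusted p = 0.0055), alone among the members, where 0.852% of 13034 genes were called and 0.537% were lower. In pre-Tregs its log2 fold change was −0.79 (SE 0.22, unadjusted p = 0.007 and adjusted p = 0.703 by edgeR). In that stage 0.0% of 14746 genes were called by edgeR, 968 genes had an unadjusted p under 0.05, DESeq2 called 88 genes and limma-voom 0. The Ikzf4 effect was not found to differ between stages (joint interaction, edgeR adjusted p = 0.874).

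The de novo and splenic calls depend on which spread is used. With 1 spread shared by the 6 groups, the log2 fold changes stayed at −0.54 and −0.58 but the adjusted p values were 0.333 and 0.254. The splenic call was also lost without WT replicate 1 (−0.55, adjusted p = 0.219) or WT replicate 2 (−0.61, adjusted p = 0.125), each of which leaves 1 WT library, while the all-stage call held without any 1 of the 13 libraries (adjusted p from 0.00234 to 0.0255).

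Marker sums of other cells were read beside these results. The 10 thymic stroma markers summed to 243.1 and 243.4 CPM in WT and to 327 and 330.4 CPM in KO de novo Tregs, and of the 3 listed genes tested Epcam (0.80, edgeR adjusted p = 0.00359) and Pecam1 (0.40, adjusted p = 0.00693) were higher in KO. The listed epithelial genes Krt5, Foxn1 and Psmb11 and the fibroblast gene Pdgfra were at 0 counts in all 4 libraries. Other listed genes were not. Krt8 was at 0 in WT replicate 2 only, Cdh5 in WT replicate 2 and KO replicate 1, and Col3a1 in all but KO replicate 1. The 9 erythroid and platelet markers summed to 111 CPM in WT de novo replicate 1, against 0.715 to 3.24 CPM in the other de novo libraries. The 14 myeloid and dendritic markers summed to 169 and 166 CPM in WT against 158 and 137 CPM in KO de novo Tregs, and to 230.3 and 270.3 against 203 and 180.3 CPM in splenic Tregs. In splenic Tregs B and plasma cell markers summed to 44.3 and 57.9 CPM in WT against 112 and 65.9 CPM in KO, and the 8 CD8 T and NK markers to 51.1 and 49.3 against 41.2 and 31.2 CPM. The stroma list there summed to 258 and 233 against 312 and 282 CPM. The part of these cells in the Ikzf4 result was not tested.

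Ikzf4 also rose with entry into the lineage. From pre-Tregs to de novo Tregs its log2 fold change was 1.83 in WT (SE 0.19, edgeR adjusted p = 5e-05) and 2.09 in KO (SE 0.16, adjusted p = 2.74e-06). By p-value it ranked 65 of 13034 genes in WT and 56 in KO. Foxp3 ranked 185 and 142, with larger log2 fold changes (3.63 and 4.40) and larger SEs (0.48 and 0.42). From de novo to splenic Tregs its log2 fold changes were −0.24 in WT (SE 0.18, edgeR adjusted p = 0.496) and −0.28 in KO (SE 0.18, adjusted p = 0.365), and neither passed.

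**Figure D2:**
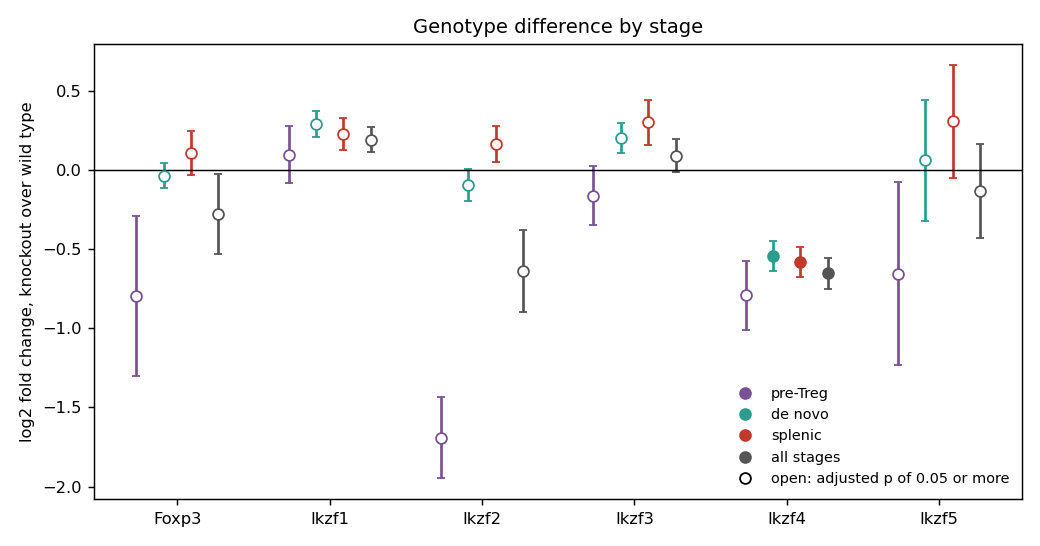
Log2 fold change of knockout over wild type (y axis) for the 6 genes (x axis), for each stage alone and for the 3 stages together, with the standard error of the edgeR fit as bars. Filled points have an adjusted p under 0.05; these are Ikzf4 at the de novo stage (−0.54), at the splenic stage (−0.58) and with the stages together (−0.65), while Ikzf2 in pre-Tregs lies lowest at −1.69 and is open.

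Ikzf2, which encodes Helios, had its widest gap between genotypes in pre-Tregs, the stage with low Foxp3. WT pre-Tregs held 428 and 581 CPM, and KO pre-Tregs held 188, 111 and 165 CPM. In de novo Tregs the values were 190.5 and 213 CPM in WT and 171 and 208 CPM in KO, and in splenic Tregs 252 and 239 CPM in WT and 249.9 and 302 CPM in KO. The 2 WT pre-Treg libraries were the highest of the 13, every KO pre-Treg library was under the lower of them by a wide margin, and the genotypes overlapped in both Treg stages. KO lay wholly below WT in 14.0% of genes at the pre-Treg stage. By group mean the order was WT pre-Treg, KO splenic, WT splenic, WT de novo, KO de novo and KO pre-Treg. KO and WT splenic Tregs overlapped, as did WT and KO de novo Tregs, and KO de novo Tregs and KO pre-Tregs.

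The WT mean of Ikzf2 in pre-Tregs was 3.26 times the KO mean. The log2 fold change of −1.69 (SE 0.26) had an unadjusted p of 0.000176, rank 7 of 14746 genes, and did not pass the adjustment (edgeR adjusted p = 0.307). Under other tools and settings it was on both sides of the threshold. DESeq2 called it (adjusted p = 5.99e-06), as did edgeR without the low-count filter (0.0151), with 1 spread over the 6 groups (0.00351) and without KO replicate 2 (0.0201), while limma-voom did not (0.366). Its log2 fold change stayed between −1.90 and −1.46 when each library was left out in turn. Double positive thymocyte markers (11 genes, among them Rag1, Dntt and Cd8a) summed to 398 and 612 CPM in WT and to 1461, 389 and 871 CPM in KO pre-Tregs. KO replicate 2, with the lowest sum of these markers, also had the lowest Ikzf2. The genotypes overlapped in this sum but not in those of the myeloid and dendritic list (91.6 and 136 CPM in WT against 209, 145 and 149 CPM in KO) and the stroma list (195 and 186 against 209, 214 and 226 CPM). The share of all genes with KO wholly above WT at this stage was not computed, so this lack of overlap is a description only. The part of these cells in the pre-Treg values was not tested.

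The genotype effect on Ikzf2 differed between stages. Its joint genotype by stage interaction had an adjusted p of 0.0478 by edgeR, the only 1 of the 6 members called where 0.161% of 13034 genes were. The effect was 1.87 higher on the log2 scale in splenic Tregs than in pre-Tregs (SE 0.31, edgeR adjusted p = 0.0437, with 0.215% of genes called). That call held in 3 of the 13 fits that left out 1 library, with an adjusted p of up to 0.244. The effect was 1.61 higher in de novo Tregs than in pre-Tregs (SE 0.31, adjusted p = 0.0753, with 0.0844% called), which did not pass. Of 6 other tools and settings, 2 called this contrast. They were DESeq2 (adjusted p = 0.00022, with 1.62% of genes called) and edgeR without the low-count filter (0.00953, with 0.466% called). Splenic and de novo effects differed by 0.26 (SE 0.32, adjusted p = 1, with 0.00767% called). The joint call lies near the threshold. That call held in 4 of 6 other tools and settings. It was lost under limma-voom (adjusted p = 0.0607) and in 10 of the 13 fits that left out 1 library, where the adjusted p reached 0.163.

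The same fit gives the step from pre-Tregs to de novo Tregs within each genotype. These values restate the interaction and are no separate support for it. In WT, Ikzf2 fell by 1.33 on the log2 scale (SE 0.23, edgeR adjusted p = 0.00173). In KO its log2 fold change was 0.28 (SE 0.21, adjusted p = 0.313) and did not pass. From de novo to splenic Tregs the values were 0.28 in WT (SE 0.23, edgeR adjusted p = 0.536) and 0.54 in KO (SE 0.23, adjusted p = 0.15), neither called. The splenic genotype difference of Ikzf2 was 0.17 (SE 0.11, edgeR adjusted p = 0.577), and without KO replicate 1, where 1 KO library is left, it was 0.30.

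**Figure D3:**
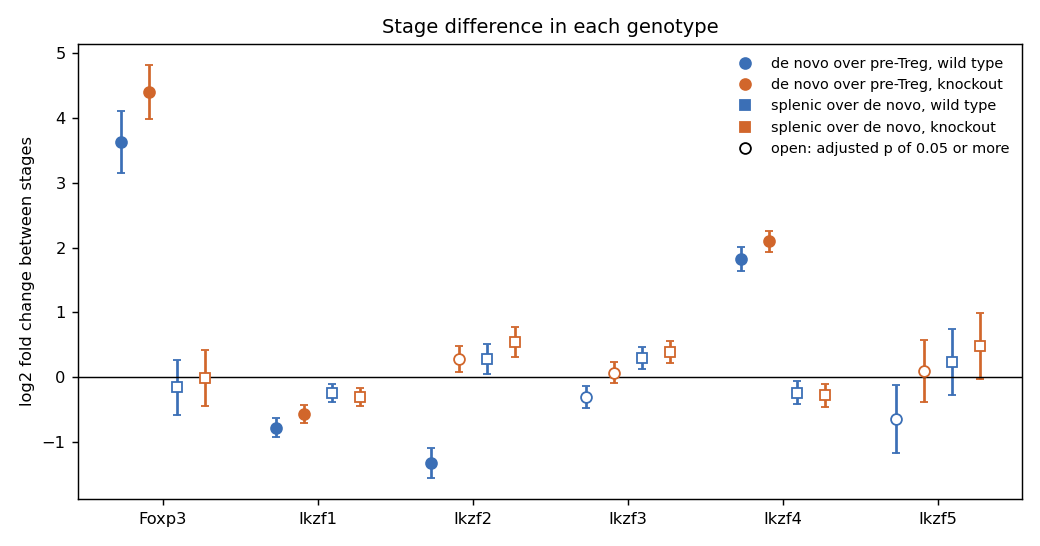
Log2 fold change between stages (y axis) for the 6 genes (x axis), from pre-Tregs to de novo Tregs (circles) and from de novo to splenic Tregs (squares), in wild type (blue) and knockout (orange), with the standard error of the edgeR fit; filled points have an adjusted p under 0.05. Foxp3 (3.63 and 4.40) and Ikzf4 (1.83 and 2.09) rise in both genotypes at the first step, Ikzf1 falls in both, and Ikzf2 is at −1.33 in wild type and 0.28 in knockout, a difference that did not pass its own test (adjusted p = 0.0753).

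Of the 6 members, 4 were called between pre-Tregs and de novo Tregs in WT (30.7% of 13034 genes were) and 3 in KO (32.4%). In WT 2 rose and 2 fell, where 16.1% of genes rose and 14.7% fell, and in KO 2 rose and 1 fell, where 15.4% rose and 16.9% fell. No member was called between de novo and splenic Tregs in WT (7.47% of genes) or in KO (12.9%). At an unadjusted p under 0.05, edgeR had none in WT, where 2805 of 13034 genes passed, and Ikzf2 and Ikzf3 in KO, where 3341 did. At the first step Foxp3 and Ikzf4 rose and Ikzf1 fell in both genotypes.

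Ikzf1, which encodes Ikaros, was highest before the Treg stages. WT pre-Tregs held 337 and 294 CPM and KO pre-Tregs 359, 292 and 349 CPM. De novo Tregs held 192 and 177 CPM in WT and 216 and 236 CPM in KO, and splenic Tregs 155 and 158 CPM in WT and 194 and 173 CPM in KO. Genotypes overlapped in pre-Tregs, and KO lay above WT without overlap in both Treg stages, as it did in 22.6% of genes in de novo and 22.5% in splenic Tregs. From pre-Tregs to de novo Tregs Ikzf1 fell by 0.78 in WT (SE 0.14, edgeR adjusted p = 0.00243) and by 0.57 in KO (SE 0.13, adjusted p = 0.00629). The KO call was lost without de novo KO replicate 1 (−0.52, adjusted p = 0.0736).

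The KO over WT log2 value of Ikzf1 was 0.29 at the de novo stage (SE 0.08, edgeR adjusted p = 0.0643) and 0.23 at the splenic stage (SE 0.10, adjusted p = 0.373). Neither passed. In de novo Tregs the value was called by DESeq2 (adjusted p = 0.0305) and by edgeR without the low-count filter (0.0316). In splenic Tregs the value without KO replicate 2 was 0.31.

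Ikzf3, which encodes Aiolos, was not called between stages in either genotype. Pre-Tregs held 165 and 164 CPM in WT and 123, 145 and 169 CPM in KO. De novo Tregs held 145 and 122 CPM in WT against 151 and 157 CPM in KO, and splenic Tregs 174 and 154 CPM against 229 and 175 CPM. KO lay above WT in both Treg stages without overlap, as in 22.6% of genes in de novo and 22.5% in splenic Tregs, and among the 6 group means only the highest, KO splenic, stood clear of its neighbour. From pre-Tregs to de novo Tregs its log2 fold change was −0.30 in WT (SE 0.17, edgeR adjusted p = 0.19) and 0.07 in KO (SE 0.16, adjusted p = 0.759). The genotype log2 fold changes of −0.16, 0.20 and 0.30 at the 3 stages did not pass (edgeR adjusted p = 0.798, 0.285 and 0.395). In splenic Tregs the value without KO replicate 2 was 0.48.

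Ikzf5, which encodes Pegasus, was read at 14 to 100 counts per library. That was between 0.8 and 3.26 CPM in every group, with both ends of the range in pre-Tregs. The level of 3 counts lay at 0.0854 to 0.22 CPM, depending on the library, so Ikzf5 was detected in all 13 but with little precision. Its genotype log2 fold changes of −0.65, 0.06 and 0.31 had SEs of 0.58, 0.38 and 0.36, and none of its tests passed. Most of its exonic bases lie under genes of the other strand. If strand was not used in counting, these counts can overstate or understate Ikzf5 RNA, depending on how reads over several genes were handled.

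The levels of the family genes were compared per length, as CPM per kilobase of exonic length, and expressed as shares of the family sum in each library. By group mean Ikzf2 was above Ikzf4 in pre-Tregs and below it in both Treg stages, in WT and in KO. In KO pre-Treg replicate 2 alone among the pre-Treg libraries, Ikzf4 was above Ikzf2. Ikzf2 made up 32.0% of the family in WT pre-Tregs (SD 4.9, n = 2) and 13.5% in KO pre-Tregs (SD 2.56, n = 3). It then made up 13.5% and 13.9% in WT and KO de novo Tregs, and 17.5% and 20.8% in WT and KO splenic Tregs. Per library the Ikzf2 share was 28.5% and 35.5% in WT pre-Tregs and 15.9%, 10.8% and 13.7% in KO pre-Tregs, with no overlap. By level, KO lay wholly below WT in 14.0% of genes at that stage.

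Ikzf4 made up 13.1% of the family in WT pre-Tregs (SD 2.48) and 10.5% in KO pre-Tregs (SD 2.34), with overlap. Its share was 49.4% in WT de novo Tregs (SD 1.75) and 37.2% in KO de novo Tregs (SD 1.66). In splenic Tregs it was 44.3% against 31.2%, and in both Treg stages the genotypes did not overlap. By level, KO lay wholly below WT in 23.8% of genes in de novo and 23.0% in splenic Tregs. Ikzf1 made up 40.6% of the family in WT and 58.7% in KO pre-Tregs. Shares of a library are tied, so a lower level of 1 gene raises the shares of the others. The level of Ikzf1 overlapped between the genotypes in pre-Tregs and was not called (log2 fold change 0.09, SE 0.18, edgeR adjusted p = 0.878). In WT replicate 2 the Ikzf1 share stood at 36.1% beside 35.5% for Ikzf2. Without division by length the WT order turned, with 29.1% for Ikzf1 and 45.8% for Ikzf2. In Tregs its share was lower in WT than in KO, 24.9% against 33.5% in de novo and 22.4% against 27.6% in splenic Tregs. Ikzf3 held between 11.9% and 20.02% and Ikzf5 between 0.263% and 0.433% as group means.

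**Figure D4:**
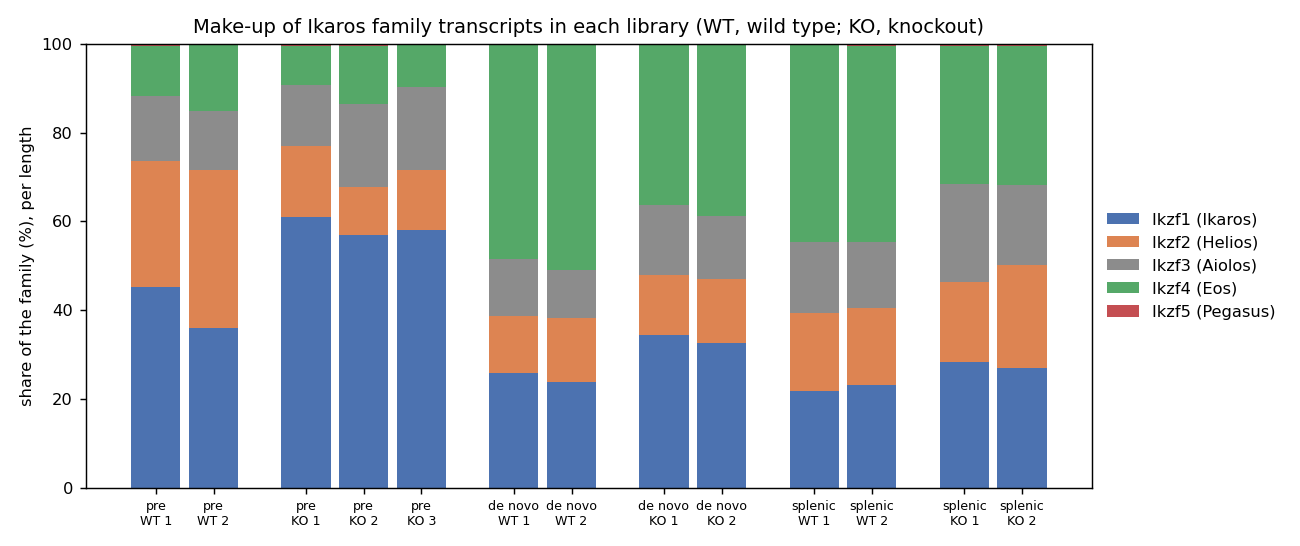
Share of each Ikaros family gene in the sum of the family (y axis, percent, levels per length) in each library (x axis, stage and genotype with the replicate number). In Tregs the Ikzf4 share is 48.1% and 50.6% in the wild-type and 36.0% and 38.4% in the knockout de novo libraries, and Ikzf2 takes 28.5% and 35.5% in wild-type pre-Tregs.

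The family sum ranged from 129 to 141 CPM per kilobase in WT pre-Tregs and from 88.6 to 104 in KO pre-Tregs, and from 109 to 128 across de novo and 111 to 123 across splenic libraries. Foxp3 on the same per-length scale stood at 4.91 to 25.3 in pre-Tregs and 171 to 232 in Tregs. Foxp3 was thus below the family sum in every pre-Treg library and above it in every Treg library. The ratio of Ikzf2 to Ikzf4 per length was 2.39 to 2.52 in WT and 0.823 to 1.83 in KO pre-Tregs. In Tregs it was lower in WT (0.265 to 0.397) than in KO at the same stage (0.373 and 0.375 de novo, 0.582 and 0.748 splenic).

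Genes whose pattern over the 13 libraries was most like each member were named as a description, by Pearson's r of log2 CPM over 9649 genes. Libraries of a stage share a table and a sort, so these values carry stage. For Foxp3 the nearest were Il2rb (r = 0.99), an IL-2 receptor chain, Lrrc32 (0.99), which encodes the TGF-beta docking protein GARP, and Crim1 (0.98). For Ikzf4 they were Hopx (0.99), Icam1 (0.98), an adhesion molecule, and Syt11 (0.98). Ikzf2 had lower values with Btbd1 (0.92), Krcc1 (0.91) and Ggct (0.90). The nearest genes to Ikzf1 were Hectd2 (0.99), Sgk3 (0.98) and Camk1d (0.97), to Ikzf3 Dstyk (0.83), D5Ertd579e (0.81) and Tep1 (0.80), and to Ikzf5 Mterf1a (0.80), Ppp1r2 (0.79) and Fam174a (0.79).

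After the midpoint of the genotype means was taken from each stage, what remains is genotype and library spread. On this measure Ikzf4 was nearest to Ctdnep1 (r = 0.98), Lactb (0.97) and Fas (0.95), the death receptor. Ikzf2 was nearest to Sptlc2 (0.98), Samsn1 (0.97) and Tank (0.97), and Foxp3 to Plcl1 (0.93), Tbc1d4 (0.87) and Calhm2 (0.86). Ikzf1 was nearest to Phc3 (0.93), Hectd2 (0.92) and Sgms1 (0.92), Ikzf3 to Cog3 (0.93), Atp9b (0.91) and Cdc23 (0.90), and Ikzf5 to Srsf7 (0.95), Zscan12 (0.92) and Chac2 (0.88). Ikzf5 itself lies below the mean of 5 CPM asked of the genes compared, so its low counts limit its r on both measures. On the second measure, Spearman's rho kept 2 of the 3 genes for Ikzf3 and Ikzf4, 1 for Ikzf5 and 0 for Foxp3, Ikzf1 and Ikzf2.

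Most listed genes known to be activated with Foxp3 rose at the step where it rose. Of 17 such genes, which include Ikzf2 and Ikzf4, 14 rose and 2 fell from pre-Tregs to de novo Tregs in WT, with a median log2 fold change of 2.49 against −0.00195 over all genes tested, of which 16.1% rose and 14.7% fell. In KO 14 rose and 1 fell, with a median of 2.36 against −0.06 over all genes, of which 15.4% rose and 16.9% fell. Ctla4, an inhibitory receptor, rose by 2.35 in WT and 2.9 in KO, Gpr83, a Treg-enriched receptor, by 3.92 and 4.34, and Capg, an actin capping protein, by 2.54 and 2.76. Those that fell were Icos, a costimulatory receptor (−1.01 and −0.64), and Ikzf2 in WT. Of 11 genes known to be repressed by Foxp3, 5 fell and none rose in WT, led by Tcf7 (−1.15), Pde3b (−2.86), Satb1 (−0.95) and Il4 (−2.48). In KO 6 fell and 2 rose, beside the same shares of all genes. Both lists were chosen with earlier results of these data known, and stage differences can follow from how the stages were sorted. The counts are therefore a description and no separate evidence of a change.

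Across genotype, the genes activated with Foxp3 moved both ways in de novo Tregs. Of 16 tested, 6 were higher and 3 lower in KO, with a median of 0.02 against −0.003 over all genes. Over all genes, 2.92% were called as higher and 3.54% as lower. Ecm1 (1.13), Gpr83 (0.96), Izumo1r (0.92), which encodes folate receptor 4, Capg (0.57), Il2ra (0.44), the IL-2 receptor alpha chain, and Ctla4 (0.43) were higher. Itgae (−2.18), the integrin CD103, Nrp1 (−0.92), the semaphorin co-receptor neuropilin 1, and Ikzf4 were lower. In splenic Tregs, where 1.37% of all genes were called, 2 of 17 were, Ctla4 at 0.86 and Ikzf4. No gene repressed by Foxp3 was called for genotype in de novo Tregs (0 of 9), splenic Tregs (0 of 10) or pre-Tregs (0 of 11) by edgeR, where 6.46%, 1.37% and 0.0% of all genes were called. Tnfrsf18, the receptor GITR, was not called for genotype at any stage (edgeR adjusted p = 0.984, 0.422 and 0.83), nor was Satb1 (0.831, 0.486 and 0.314).

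The genotype calls among regulators and partners of the members were near the share of all genes called, which was 6.46% at the de novo, 1.37% at the splenic and 0.0% at the pre-Treg stage. Of 29 inducers and regulators of the Foxp3 locus, 2 were called in de novo Tregs, Stat5a at −0.40 and the DNA demethylase Tet2 at 0.40, and 0 in pre-Tregs or splenic Tregs. Of 16 Foxp3 protein partners, 1 was called in de novo Tregs, Irf4 at −1.05. Foxo1, a forkhead factor that acts on the Foxp3 locus, was not called (edgeR adjusted p = 0.724, 0.793 and 0.912 at the 3 stages). Among the Foxp relatives of Foxp3, Foxp1 was higher in KO de novo Tregs by 0.33 (SE 0.08, edgeR adjusted p = 0.0234), with 336 and 357 CPM in WT against 418 and 456 in KO. In splenic Tregs the Foxp1 value was 0.37 (SE 0.09, adjusted p = 0.118), and Foxp4 was not called at any stage.

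For the Ikaros family, 1 of 18 NuRD, Sin3 and CtBP corepressor genes was called for genotype in de novo Tregs, where 6.46% of all genes were. It was Mbd2, a NuRD subunit, at 0.32. None was called in splenic Tregs (1.37% of all genes) or pre-Tregs (0.0%). None of the 5 genes of the cereblon ubiquitin ligase, through which drugs degrade Ikaros and Aiolos, was called for genotype at any stage by edgeR, beside the same shares of all genes.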

How the data were processed

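The deposited values are raw counts of reads per gene, made by the authors with no normalization. Per the submitters' processing notes, the build was GRCm38 and the tools named include STAR 2.5.2, Subread 1.5.2 with featureCounts, limma, Picard 2.9.0, MultiQC and FastQC. The annotation release is not given in the sources used here. The members and gene lists were chosen with earlier results of these data known.

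Genotype was tested in each stage alone with edgeR 4.0.16 in R 4.3.3 (TMM, filterByExpr with a minimum count of 10 and a minimum total of 15, quasi-likelihood F-test, Benjamini-Hochberg adjustment over all genes tested, threshold 0.05). All-stage, interaction and stage comparisons used the 13 libraries and the genes named once in each table. The 2 stage comparisons within a genotype share de novo libraries. SEs are the log2 fold change over the square root of F. Lengths are those deposited in the pre-Treg table. DESeq2 1.42.0, limma 3.58.1 (voom) and other settings were alternatives. The edgeR fits of single stages and of the 6 groups were also run on simulated data, and the outcome is not reported here. Replicates of a group differed beyond sampling noise. Gene models are GENCODE M21. The finger sequences of Ikzf3 and Ikzf4 are not reported here.

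Genes named are the 6 members, Rel, the 3 nearest genes per member and likeness measure (log2 CPM with a prior count of 2, mean of at least 5 CPM), up to 4 called list members per comparison and Foxp1, Foxp4, Foxo1, Satb1, Il2ra, Ctla4 and Tnfrsf18. Nrp1 and Icos were added after their values were seen.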

Additional observations from a re-analysis of the deposited data

Results flagged for a closer look

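For Ikzf2 the effect of genotype differed between stages by a test of the difference itself. The joint genotype by stage interaction had an edgeR adjusted p of 0.0478, and the splenic effect was 1.87 above the pre-Treg effect on the log2 scale (edgeR adjusted p = 0.0437). The latter was called in 3 of 13 fits that left out 1 library (adjusted p up to 0.244). KO lay below WT in 3 of 3 pre-Treg libraries, as it did in 14.0% of genes at that stage. In splenic Tregs 1 KO library lay above both WT libraries and the other between them. Why the effect differed was not tested. No group holds enough libraries for a test of single libraries that stand apart.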

How the results depend on the processing

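The all-stage Ikzf4 value kept its direction and its call under the alternative tools, scalings and filters and without any 1 library. Other calls moved, and the cause was not tested. With 1 spread shared by the groups, the number of members called for genotype went from 1 to 0 in de novo Tregs (Ikzf4 at −0.54) and from 1 to 0 in splenic Tregs (Ikzf4 at −0.58). It was 2 in de novo Tregs under DESeq2 and without the low-count filter. In pre-Tregs it went from 0 to 1, always Ikzf2, under DESeq2 (−1.69), without the low-count filter (−1.69) and with the shared spread (−1.70). The joint interaction of Ikzf2 had an adjusted p of 0.0607 under limma-voom, leaving 0 members called.

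With a replicate block, Ikzf2 in pre-Tregs was called (−1.76, 1 member), its joint interaction was not (adjusted p = 0.211, 0 members), nor its splenic minus pre-Treg contrast (0.147) or the fall of Ikzf1 from pre-Tregs to de novo Tregs in KO (0.0506), and Foxp3 from de novo to splenic Tregs turned to 0.16 in KO and 0.022 in WT. Same-numbered libraries did not deviate together (correlations of −0.0893, −0.0497 and −0.0911). With 2 pairs per stage, these values cannot show whether same-numbered libraries were prepared together.

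When libraries were left out in turn, members called ranged from 0 to 1 for the joint interaction, 1 to 2 for genotype in de novo Tregs, 0 to 1 in pre-Tregs, 0 to 4 in splenic Tregs, 2 to 3 from pre-Treg to de novo KO Tregs (Ikzf1 lost without de novo KO replicate 1) and 0 to 1 from de novo to splenic KO Tregs. The 4 were Foxp3, Ikzf1, Ikzf3 and Ikzf4 without KO replicate 2, a fit that called 12.3% of all genes with 1 KO library left, and the 0 came without WT replicate 1 or 2. The joint interaction p of Ikzf2 ranged from 0.00334 to 0.163, its pre-Treg genotype value from −1.90 to −1.46 and the splenic value of Ikzf4 from −0.62 to −0.54. Values without a call changed sign for genotype in Foxp3 (−1.40 to 0.24 in pre-Tregs, −0.14 to 0.065 de novo, −0.12 to 0.31 splenic), Ikzf1 (−0.0079 to 0.19 in pre-Tregs), Ikzf2 (−0.23 to 0.041 de novo) and Ikzf5 (−0.23 to 0.30 de novo). Between stages in KO they did so for Ikzf3 from pre-Tregs to de novo Tregs (−0.034 to 0.19) and Foxp3 from de novo to splenic Tregs (−0.24 to 0.20).

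Over all genes, calls for genotype numbered 168 in splenic Tregs and 526 under DESeq2, 475 without the low-count filter, 363 with the replicate block and 61 with the shared spread. They numbered 766 against 100 in de novo Tregs with the shared spread, and 0 in pre-Tregs against 88 (DESeq2), 14 (no filter), 77 (block) and 71 (shared spread). With stages together they numbered 111 against 325 (DESeq2), 191 (limma-voom) and 35 (block), and for the joint interaction 21 against 498 (DESeq2), 198 (no filter), 4 (limma-voom) and 4 (block). The block also lowered stage calls, from 4220 to 1827 (pre-Treg to de novo, KO), 1680 to 503 (de novo to splenic, KO) and 974 to 217 (de novo to splenic, WT), and DESeq2 gave 1581 for the last.

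Without splenic KO replicate 1 or 2 the splenic genotype calls were 2508 and 1548. Over the fits that left out 1 library, calls ranged from 0 to 295 for the joint interaction, 0 to 64 for genotype in pre-Tregs and 44 to 222 with stages together, each highest without pre-Treg KO replicate 2. From pre-Tregs to de novo Tregs they ranged from 1273 to 6014 in WT and 1858 to 6520 in KO, and from de novo to splenic Tregs from 257 to 2224 in WT and 619 to 2936 in KO, also highest without that library. The lowest came without 1 of the libraries of the groups compared.

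Spearman's rho in place of Pearson's r kept 0 to 2 of the 3 genes named as most like a member. Family shares without division by length moved in 27 of 30 values. Groups of 2 or 3 libraries and low Ikzf5 counts limit the precision.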
